A study of Arabidopsis thaliana with 116 samples.

Results

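Recombinant inbred lines of Arabidopsis thaliana were split in 2 by the signal of AT2G41650, a gene toward the end of chromosome 2, and the resulting groups were compared across all other genes measured in their developing seeds. The 116 lines, which are all lines of the series, came from crosses of the accessions C24 and Col-0 made in both directions. Lines with an AT2G41650 signal above 5.45 log2 are called upper lines (59 lines) and those at or below it lower lines (57 lines), so the groups were chosen by that measured value. No line was assigned to a parent. The upper lines comprised 33 with names in Q and 26 with names in R, and the lower lines 26 in Q and 31 in R; the letter's link to a direction of the cross was not given in the sources used here. All lines shared 1 treatment: seeds 10 to 11 days after flower opening, dissected from 8 siliques of each of 6 pooled plants per line, with 1 Affymetrix array per line. The tables held here give AT2G41650 no functional name.

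A recombinant inbred line is bred by selfing until almost every locus is fixed for one parent or the other. Genes that lie close together on a chromosome are inherited as a block, so a split at one gene also splits the lines at its neighbours, less and less exactly with distance. A neighbour whose own alleles differ then differs between the groups, and this is called a local association. A gene on another chromosome is inherited independently, and a difference in its transcript between the groups is called a distant association. At this stage the Arabidopsis embryo is filling with oil and storage protein and is still green, and the seed coat around it makes flavonoids and mucilage. On a short-oligonucleotide array a mismatch between an accession's transcript and the probes lowers the signal, so a change of letters in the probed stretch and a change in the amount of transcript cannot be told apart here. In whole seeds, fewer cells of a type and less RNA per cell cannot be told apart either.

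Values are log2 probe set signals, and every difference below is upper minus lower lines on that scale. The lowest, median and highest AT2G41650 signals were 5.87, 7.28 and 8.06 in upper lines, against 3.18, 3.62 and 4.33 in lower lines. The means were 7.24 ± 0.398 in upper lines and 3.67 ± 0.230 in lower lines (SD, n = 59 and 57), a distance of 3.56, and no test is given because the lines were selected on these values. The lines nearest to the threshold were Q021 at 5.87, Q111 at 6.30 and R155 at 6.46 above it, and Q134 at 4.33, R186 at 4.23 and R024 at 4.19 below it. No line lay in the 1.55 log2 between them, and 1 line was within 0.5 of the threshold. Upper lines made up 55.9% of Q lines and 45.6% of R lines, an odds ratio of 1.51 that two-sided Fisher's exact test did not separate from even (p = 0.353). The 3′ minus 5′ difference of control transcripts, which grows as RNA degrades, averaged 0.55 ± 0.505 in upper and 0.51 ± 0.514 in lower lines, and the array medians averaged 5.90 ± 0.0236 in upper and 5.91 ± 0.0203 in lower lines.

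**Figure D1:**
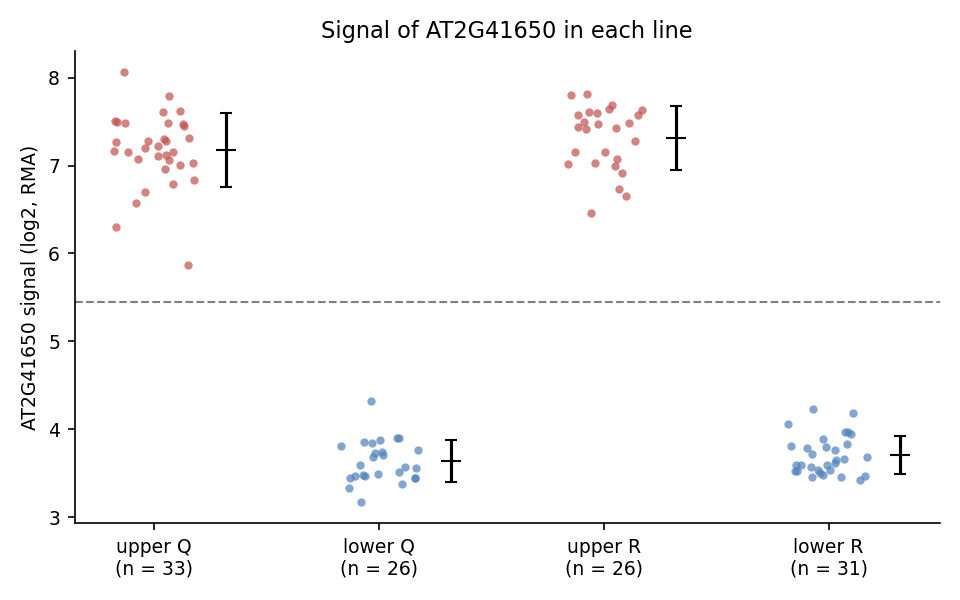
Signal of AT2G41650 (log2, vertical axis) in each of the 116 lines, for upper and lower lines within the Q and R lines. Points are lines, bars are mean and SD, and the dashed line is the threshold of 5.45; upper lines start at 5.87 and lower lines end at 4.33.

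How far the split reached along chromosome 2 was read from 18 other genes of the chromosome whose signals fell into separate modes. A line was counted as recombinant when its mode at such a gene was not the one that usually went with its mode at AT2G41650. Distance is given in annotated gene places, counted along the order of genes in the gene table. AT2G40010, the gene of an acidic ribosomal protein of the P0 type, lies 234 places toward the chromosome start and had 8 recombinants in 116 lines (6.90%). On the other side AT2G43800, a formin gene 292 places toward the chromosome end, had 9 recombinants (7.89% of the lines that could be placed). The split therefore stood for a block of chromosome, which in most lines covered both flanking genes. Of the lines that could be placed at both, 98 carried the matching mode at both flanks, 7 differed only at AT2G40010, 8 only at AT2G43800 and 1 at both.

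Toward the chromosome start the share of recombinants grew with distance. It was 14.7% at AT2G37050 (614 places away, a receptor-like kinase gene), 17.5% at AT2G35820 (771 places) and 27.6% at AT2G33220 (1135 places). AT2G32790, AT2G32190, AT2G29995 and AT2G28130 had 26.3%, 26.9%, 29.8% and 33.9%, and AFR, an F-box gene of phytochrome A signalling, had 35.2%. The 8 genes beyond AFR had between 43% and 46.8%. For comparison, genes with separate modes on the other chromosomes had a median of 45.7% and a lowest value of 37.4%, at AT4G29700 on chromosome 4. Recombinants are by definition the rarer class, which holds the figure for a gene without linkage below an even split.

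**Figure D2:**
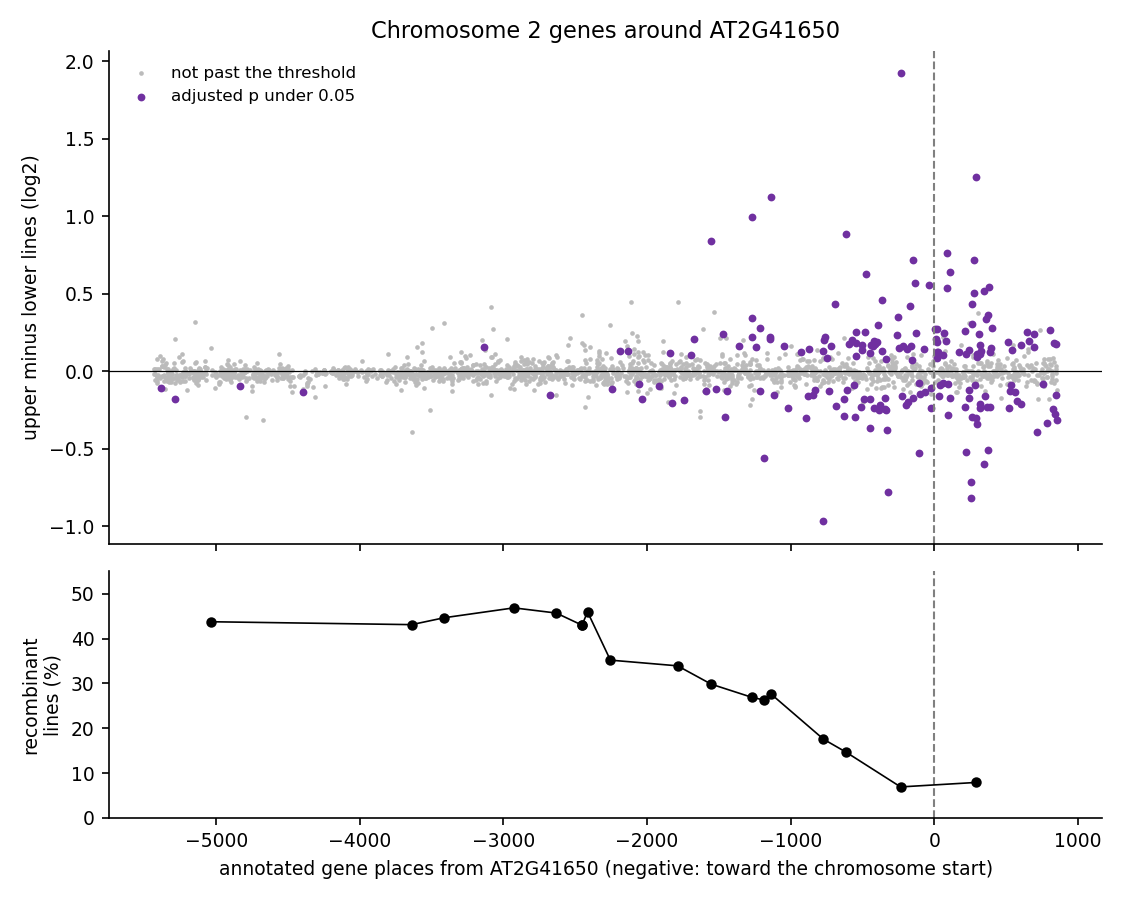
Above, the upper minus lower difference (log2) of each tested chromosome 2 probe set against its distance from AT2G41650 in annotated gene places, with those past an adjusted p of 0.05 in purple. Below, the percentage of recombinant lines at the 18 chromosome 2 genes with separate modes, which grows from 6.90% at AT2G40010 to 43% and more at the far end of the chromosome.

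Across all other probe sets 524 of 22745 differed between upper and lower lines at an adjusted p under 0.05 (limma with the letter as covariate, Benjamini-Hochberg), which is 2.3%. Of these 243 were higher in upper lines (1.07% of those tested) and 281 lower (1.24%). On chromosome 2, 8.82% of 2199 probe sets were called, each for a different gene, with 4.77% of those tested higher and 4.05% (89 probe sets) lower. Their median absolute difference was 0.19 and the greatest was 1.92, at AT2G40010. Within 200 gene places of AT2G41650, 38 probe sets were called (24.8% of those tested there), from over 200 up to 800 places 23.5% of 452, and beyond 800 places 50 of 1594 (3.14%). Linked genes stood in both directions at each distance, and in no called gene of any class were the lines fully separated: the ranges of the upper and lower lines overlapped in every tested probe set.

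AT2G42320, 91 places from AT2G41650, had the smallest p among probe sets with a gene name. Its signals ran from 6.66 through a median of 7.70 to 8.05 in upper lines, against 6.56, 6.92 and 7.53 in lower lines. Of the 59 upper lines 47 lay above the highest lower line, and the difference was 0.76 ± 0.0434 (SE; limma, adjusted p = 1.46e-30). AT2G40010, the ribosomal P0 gene that also served as a flanking marker, had 4.48, 6.84 and 7.52 in upper lines, against 4.27, 4.65 and 6.78 in lower lines. Its difference of 1.92 ± 0.111 was the greatest of any named gene (adjusted p = 4.44e-30), and its 8 recombinants were 7 upper lines with a low signal and 1 lower line with a high one. The formin gene AT2G43800, whose product nucleates actin filaments, had 6.36, 8.09 and 8.87 in upper lines, against 5.85, 6.69 and 8.38 in lower lines, a difference of 1.25 ± 0.0885 (adjusted p = 1.98e-23). The rhodanese-like gene AT2G40760 had 5.93, 6.72 and 7.03 in upper lines, against 5.80, 6.12 and 6.68 in lower lines, a difference of 0.57 ± 0.0354 (adjusted p = 1.71e-27).

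Several regulators and enzymes followed among the linked genes that were higher in upper lines. LBD16, a LOB-domain transcription factor known for starting lateral roots, had 6.0, 7.04 and 7.55 in upper lines, against 5.84, 6.37 and 7.45 in lower lines, a difference of 0.64 (adjusted p = 8.71e-22). The calmodulin-like gene AT2G41410, 36 places away, had 9.54, 10.10 and 10.52 in upper lines, against 9.00, 9.57 and 9.95 in lower lines, so that 42 of 59 upper lines lay above the highest lower line (difference 0.55, adjusted p = 5.34e-20). AT2G44530, a gene of phosphoribosyl pyrophosphate synthase, which supplies nucleotide synthesis, differed by 0.54, the receptor-like kinase gene AT2G42290 by 0.53 and the esterase gene AT2G38180 by 0.62. HEME2, the uroporphyrinogen decarboxylase of chlorophyll and heme synthesis, had 6.46, 7.45 and 8.13 in upper lines, against 6.56, 6.99 and 7.52 in lower lines, a difference of 0.42 (adjusted p = 5.59e-12). AT2G37050 (0.88) and AT2G41770 (0.27), a gene of the STELLO proteins that assemble the cellulose synthase complex, completed the 12 with the smallest p.

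Among linked genes lower in upper lines, AT2G40960, which encodes a nucleic acid binding protein with an R3H domain, had the smallest p. Its signals were 4.07, 4.33 and 5.08 in upper lines, against 4.14, 4.93 and 5.42 in lower lines, a difference of -0.53 ± 0.0413 (adjusted p = 2.18e-20). The FAR1-family gene AT2G43280 had 5.84, 6.33 and 7.32 in upper lines, against 5.88, 6.95 and 7.30 in lower lines, a difference of -0.52 ± 0.0484 (adjusted p = 3.87e-16). AT2G47010, 713 places toward the chromosome end, differed by -0.39, and AT2G41475, related to the embryo-specific protein ATS3 and only 22 places away, by -0.24. In AT2G41475 the medians were 4.33 in upper lines and 4.56 in lower lines, both among the dimmer signals of the array. The hydrolase gene AT2G39420 had 5.13, 6.26 and 7.81 in upper lines, against 6.12, 7.11 and 7.88 in lower lines, a difference of -0.78 ± 0.0884 (adjusted p = 1.09e-11).

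The salicylic acid glucosyltransferase gene UGT74F1 differed by -0.34 (4.54, 4.88 and 5.56 in upper lines, against 4.80, 5.22 and 5.71 in lower lines, adjusted p = 1.12e-12). LSM6B, an Sm-like protein of RNA processing, differed by -0.30, the transcription factor gene BZIP34 by -0.28 and AT2G43235 by -0.23. AT2G35820, with separate modes in the lines, was lower by -0.97 (6.94, 7.45 and 9.28 in upper lines, against 7.17, 8.88 and 9.30 in lower lines). Its high mode fell mostly in lower lines, the opposite of AT2G37050. All 24 linked genes with the smallest p, 12 in each direction, passed the threshold in Q lines alone and in R lines alone. The same lines had served to choose them, so this is not a separate test.

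**Figure D3:**
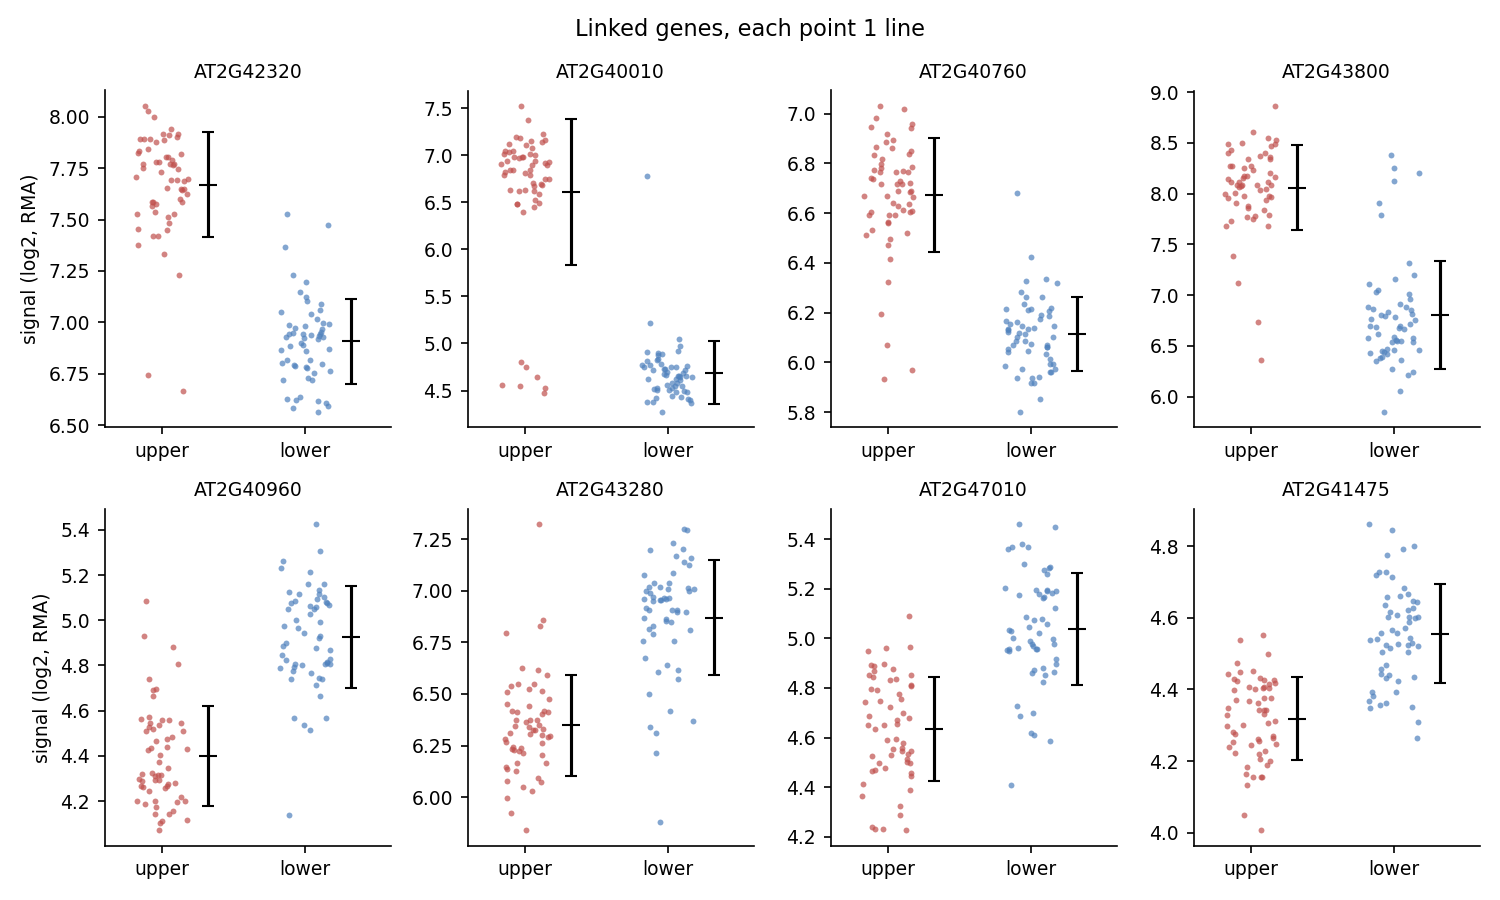
Signal (log2) in upper and lower lines of the 4 linked genes with the smallest p in each direction, higher in upper lines in the top row and lower in the bottom row. Each point is 1 line, and bars are mean and SD; in AT2G40010 a group of upper lines sits at the level of the lower lines.

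The nearest neighbours did not share a direction on both sides. Of the 10 measured genes next to AT2G41650 toward the chromosome start, from LIS to AT2G41640, 0 passed the threshold, and their differences ran from -0.09 to 0.10. AT2G41640, the very next gene, had medians of 4.06 in upper and 3.93 in lower lines (difference 0.10, adjusted p = 0.0892). Toward the chromosome end 6 of the 10 nearest genes passed, all higher in upper lines. They were NTRC (0.27), the plastid thioredoxin reductase that uses NADPH, the AP2-family gene AT2G41710 (0.21), the N-terminal glutamine amidase gene AT2G41760 (0.13), the STELLO gene AT2G41770 (0.27), AT2G41780 (0.19) and the insulysin-type peptidase gene AT2G41790 (0.08). AT2G41705, AT2G41730, AT2G41800 and AT2G41810, which lie among them, were not called, with differences of -0.07, -0.0033, 0.10 and -0.06. For NTRC the signals were 6.34, 6.86 and 8.00 in upper lines, against 6.19, 6.62 and 7.28 in lower lines. The counts on the sides changed with the fit: AT2G41790 was not called with 10 principal components (adjusted p = 0.125), and NTRC was called neither in Q lines alone (0.25, adjusted p = 0.0716) nor in R lines alone (0.29, adjusted p = 0.106). Among the other called neighbours AT2G41790 was lost in Q lines alone, and AT2G41760, AT2G41780 and AT2G41790 were lost in R lines alone. AT2G41640 was called with array weights (0.11, adjusted p = 0.0289) and with the AT2G41650 signal as a continuous covariate (0.11, adjusted p = 0.0415).

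By distance, called genes were a greater share on the side of the chromosome end at the closest range. In the first 50 places 3 of 17 probe sets were called toward the start (17.6%) and 9 of 19 toward the end (47.4%), both thinly filled. From over 200 up to 400 places the shares were 21.2% toward the start and 40.2% toward the end. From over 100 up to 200 places the order was turned, with 31.0% toward the start and 10% toward the end. It was turned as well from over 400 up to 800 places, with 22.2% toward the start and 13.9% toward the end. The shares toward the start and the end were 10.5% and 30.8% from over 50 up to 100 places. They were 9.39% and 29.2% from over 800 up to 1600 places. These differences between sides were not tested, and neighbouring genes share the recombination events of the same lines. Beyond 1600 places, which exist only toward the start, 17 of 1293 probe sets were called (1.31%).

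Further toward the start, AT2G33220 had 6.33, 8.91 and 9.42 in upper lines, against 6.07, 6.83 and 9.31 in lower lines, a difference of 1.12 ± 0.199 (adjusted p = 2.03e-05). Both groups held lines of both modes, in unequal shares. AT2G32190 (1.00), AT2G29995 (0.84) and AT2G32790 (-0.56) were called as well, and none of the 4 was called with 10 principal components as covariates. AT2G28130 (0.45, adjusted p = 0.0522) and AFR (0.30, adjusted p = 0.175) did not pass, nor did the 8 genes with separate modes beyond AFR. With only probe sets of a mean of at least 5 log2 tested, AT2G28130 was called (0.45, adjusted p = 0.0386).

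A run of neighbours 258 to 276 places toward the chromosome end held differences of both signs. AT2G43530 and AT2G43535, in a cluster of genes for small cysteine-rich trypsin inhibitor and defensin-like proteins, were lower in upper lines, by -0.72 and -0.81. AT2G43530 had 7.76, 8.23 and 9.78 in upper lines, against 7.62, 9.19 and 9.92 in lower lines, and AT2G43535 had 7.54, 8.75 and 10.62 in upper lines, against 8.72, 9.67 and 10.53 in lower lines. AT2G43550 was lower too (-0.29), whereas AT2G43540 (0.43), AT2G43560 (0.30), AT2G43660 (0.50) and AT2G43670 (0.71) were higher. The neighbours AT2G43800 (1.25) and LSM6B (-0.30), 1 place apart, differed in opposite directions. These called genes of the run, and the others named in the rest of this paragraph, were picked for their place after their values had been seen. The cytokinin response regulator gene RR16 was higher by 0.72, and the beta-glucosidase genes BGLU15 and BGLU29 were lower by -0.23 and -0.51. At the very end of the chromosome PAC, a plastid RNA maturation gene, was lower by -0.32.

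On chromosomes 1, 3, 4 and 5 fewer genes differed and the differences were small. There 93 of 11167 probe sets were called (0.833%), each for a different gene, of which 26 were higher and 67 lower in upper lines. Their median absolute difference was 0.13 and the greatest was 0.36, beside a median of 0.19 among linked genes. The p-values were adjusted once over all tested probe sets, with the many linked calls among them. The threshold therefore limits the expected share of false calls over all probe sets together. Among the unlinked calls alone that share may be greater, and it was not estimated. Chromosome 4 had 24 called of 1962 (1.22%), chromosome 1 had 27 of 3451 (0.782%), chromosome 5 had 24 of 3008 (0.798%) and chromosome 3 had 18 of 2746 (0.655%). With the arrays set to equal medians the calls numbered 30 higher and 42 lower, so the balance of the directions moved with the scaling. The genes with separate modes that recombined least with AT2G41650 on other chromosomes also lay on chromosome 4, from 37.4% at AT4G29700 and 37.9% at AT4G20480 to 39.7% at AT4G02540. Beyond the fits with covariates given below, their part in the unlinked differences was not tested.

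Of the unlinked genes higher in upper lines, AT1G28100 had the smallest p. Its signals were 5.38, 6.08 and 6.44 in upper lines, against 5.32, 5.85 and 6.26 in lower lines, and the difference was 0.19 ± 0.0353 (limma, adjusted p = 4.07e-05). Ranges overlapped almost wholly, and the groups differed in their centres. AT4G27450, whose product resembles aluminium-induced proteins, had 9.80, 10.97 and 11.59 in upper lines, against 9.73, 10.61 and 11.41 in lower lines, a difference of 0.32 ± 0.0686 (adjusted p = 0.000854). AT5G58330, the plastid malate dehydrogenase that uses NADP, had 7.81, 8.11 and 8.61 in upper lines, against 7.63, 7.95 and 8.49 in lower lines, a difference of 0.15 ± 0.0337 (adjusted p = 0.00176). The cell wall glycosidase gene AT5G20950 differed by 0.16, the thylakoid lumen protein gene AT4G02530 by 0.19, AT5G17650 by 0.18 and AT3G15900 by 0.21. UGT80B1, a sterol glucosyltransferase that acts in the seed coat, differed by 0.13 (adjusted p = 0.0202), with 0.23 in Q lines and 0.02 in R lines. FLDH, the farnesol dehydrogenase gene, differed by 0.08, and AT4G02170, AT3G13800 and AT5G17530 by 0.14, 0.16 and 0.12. AT4G02170 was dim, with medians of 3.69 in upper and 3.57 in lower lines.

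The 12 unlinked genes lower in upper lines with the smallest p included a transcription factor, a transporter and a co-regulator gene. BZIP53, a bZIP factor that activates seed maturation genes, had 8.71, 9.14 and 9.45 in upper lines, against 8.66, 9.33 and 9.71 in lower lines, a difference of -0.18 ± 0.0364 (adjusted p = 0.000381). SWEET10, a gene of the SWEET family of sugar transporters, had 9.20, 9.80 and 10.35 in upper lines, against 9.50, 9.98 and 10.59 in lower lines, a difference of -0.21 ± 0.0420 (adjusted p = 0.000401). CHIL, a chalcone isomerase-like protein that promotes flavonoid production, had 10.06, 10.54 and 11.15 in upper lines, against 10.17, 10.77 and 11.19 in lower lines, a difference of -0.17 ± 0.0392 (adjusted p = 0.00256). In these 3 genes the medians differed while the ranges shared most of their span. The smallest p in this direction belonged to AT5G28310, with 4.78, 5.12 and 5.49 in upper lines, against 5.02, 5.30 and 5.72 in lower lines (difference -0.17, adjusted p = 0.000163).

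SEU, the transcriptional co-regulator SEUSS of ovule and flower development, was lower by -0.10 (adjusted p = 0.00342), with medians of 7.63 in upper and 7.74 in lower lines. AT3G17130, of the family of invertase and pectin methylesterase inhibitors, had 9.62, 10.66 and 11.74 in upper lines, against 9.91, 11.08 and 11.65 in lower lines, a difference of -0.33 ± 0.079 (adjusted p = 0.00564). The dehydrogenase-like gene AT4G13180 differed by -0.20 (adjusted p = 0.00253), AT4G17790 by -0.18, AT5G55620 and AT5G60720 by -0.13 each, AT1G15280 by -0.10 and AT3G43990 by -0.07. Of these AT5G60720 and AT3G43990 were dim, with medians of 3.82 and 3.55 in upper lines, against 3.88 and 3.64 in lower lines. All 93 unlinked called genes had the same sign in Q lines as in R lines, as did all called linked ones, in lines that also served to call them.

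**Figure D4:**
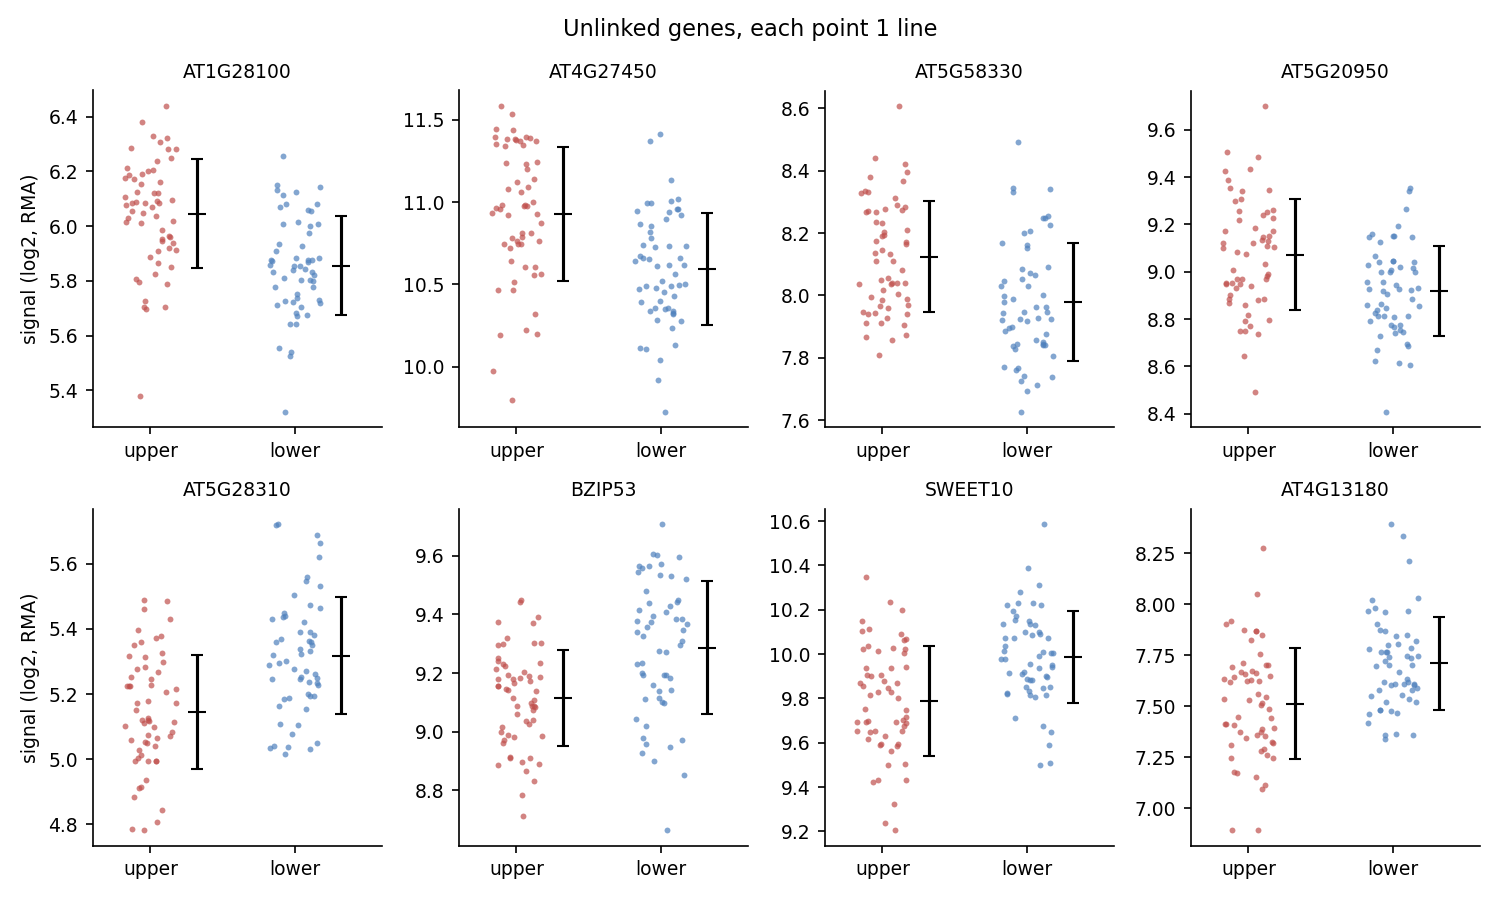
Signal (log2) in upper and lower lines of the 4 unlinked genes with the smallest p in each direction, higher in upper lines in the top row and lower in the bottom row. Each point is 1 line, and bars are mean and SD; the groups overlap over most of their range in all 8 genes.

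To set the split beside other segregating loci, the fit was repeated with the signals of 14 split genes on chromosomes 1, 3, 4 and 5 as covariates. Unlinked calls then numbered 32, of which 18 were among the 93, while 172 linked genes were called. Of the 24 unlinked genes named above 9 were called again, namely AT1G28100 (0.18), AT5G28310 (-0.20), BZIP53 (-0.18), SWEET10 (-0.16), CHIL (-0.16), SEU (-0.09), the dim AT5G60720 (-0.12), AT1G15280 (-0.09) and the dim AT3G43990 (-0.09). The other 15 kept their sign and did not pass, with AT4G27450 at 0.21 (adjusted p = 0.101) and AT3G17130 at -0.23 (adjusted p = 0.105). With 10 principal components of all probe sets as covariates, AT5G28310, BZIP53, CHIL and AT4G13180 were called and the other 20 were not.

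**Figure D5:**
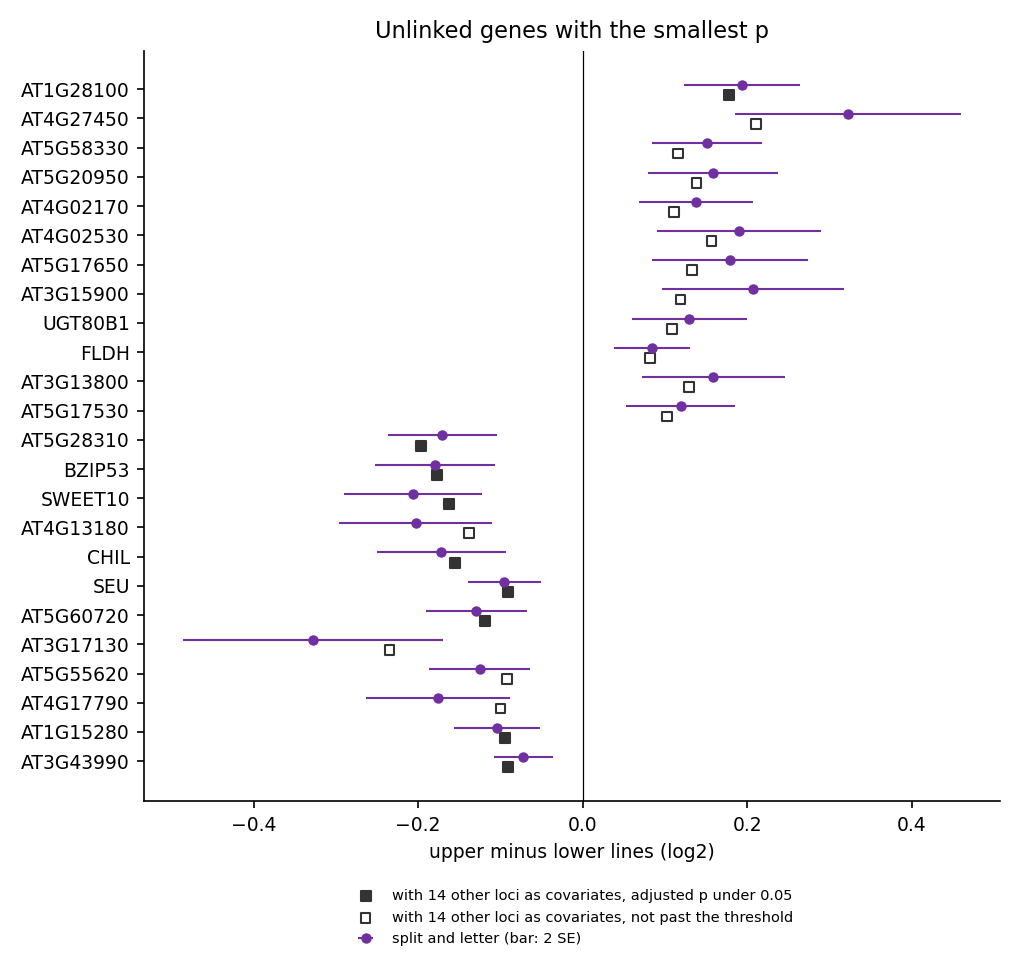
Upper minus lower differences (log2, horizontal axis) of the 24 unlinked genes with the smallest p, 12 in each direction. Purple points are fitted with the split and the letter, with bars of 2 SE, and squares are the same difference with 14 other loci as covariates, filled where the adjusted p was under 0.05, as for 9 of the 24 genes.

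For each called gene the gene with separate modes that its signal followed most closely was also found, as a description. Among the 93 unlinked genes this was AT2G41650 for 12 and a gene of chromosome 2 for 56, of which 46 lay within 800 places of AT2G41650 or were AT2G41650 itself. For 23 it lay on the called gene's own chromosome and for 14 elsewhere. BZIP53 followed AT3G63340, on its own chromosome 3, more closely (absolute t of 8.10) than AT2G41650 (4.89), and CHIL and AT4G13180 followed AT4G02540 on chromosome 4. AT4G17790 followed AT4G18300 (11.5, against 4.00 at AT2G41650). AT3G13800 and AT3G15900 followed AT3G12610 (9.38 and 7.40, against 3.61 and 3.72). AT5G17530 followed AT5G17880, AT4G02170 followed AT4G02540 and AT4G02530 followed AT4G29700, each on its own chromosome. AT1G28100, AT5G28310, SEU and AT3G43990 followed AT2G41650 most closely, and SWEET10, AT5G58330 and FLDH followed AT2G40010. AT4G27450, AT3G17130, AT5G55620 and UGT80B1 followed AT2G35820, 771 places toward the chromosome start. Within chromosome 2 alone the closest gene was AT2G41650 for 24 of the 93, AT2G35820 for 19, AT2G37050 for 15, AT2G40010 for 12 and AT2G43800 for 9. The unlinked genes were called at AT2G41650, so these counts favour it and its neighbours by choice.

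Among 14 lists of seed genes, 61 of 236 genes were measured under their name, and 3 of them were called, all lower in upper lines. Over all tested probe sets 2.3% were called and 1.24% were called lower. Among late embryogenesis abundant genes, whose proteins protect drying seeds, 0 of 15 were higher and 2 were lower, with a list median of -0.03 beside a median of -0.0094 over all tested probe sets. One of the 2 lies on chromosome 2, where 8.82% of probe sets were called. Differences were positive in 5 of the 15 genes and negative in 10. They ran from -0.26 to 0.25, the latter at AT3G17520, which was not called. AT4G21020 had 8.84, 10.09 and 10.96 in upper lines, against 9.40, 10.31 and 11.05 in lower lines, a difference of -0.26 (adjusted p = 0.0209). LEA (AT2G21490), on chromosome 2 but 2676 places away, differed by -0.16, just past the threshold (adjusted p = 0.04996). Neither was called with the 14 other loci as covariates (AT4G21020 -0.22, adjusted p = 0.0904; LEA -0.13, adjusted p = 0.124) or with 10 principal components (AT4G21020 -0.09, adjusted p = 0.412; LEA -0.08, adjusted p = 0.236), and neither was called in Q lines or in R lines alone. Of the 2 maturation regulators BZIP53 was called, and EEL, a bZIP factor gene 90 places from AT2G41650, differed by -0.10 and was not (adjusted p = 0.141).

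No other list had a called member. All 6 nuclear photosynthesis genes had positive differences (median 0.12), with the antenna gene LHCB4.2 at 0.16 (adjusted p = 0.13), and so had the 3 cell cycle genes (median 0.14), with the Aurora kinase gene AUR2 at 0.09. All 4 oil body genes (median -0.06) and all 5 storage protein genes (median -0.02) had negative ones. The smallest p in these lists belonged to AT3G18570 (-0.10, adjusted p = 0.162) and AT1G03890 (-0.06, adjusted p = 0.147). The oil body gene AT2G25890 differed by -0.13 (adjusted p = 0.307). Linked and unlinked genes were not separated in the lists. RCA of photosynthesis, AUR2, AT2G25890 and the storage protein genes AT2G28490 and AT2G18540 lie on chromosome 2. With 10 principal components as covariates LHCB4.2 differed by 0.0033, AUR2 by -0.0027, AT3G18570 by -0.04 and AT1G03890 by -0.02, and none was called. The shared signs within lists were not tested, nor was whether list members vary together. Medians were -0.02 for 4 seed coat genes, 0.0070 for 7 fatty acid genes, 0.0067 for 6 glucosinolate genes, 0.0041 for 3 heat shock genes and -0.0038 for 3 iron genes. The markers of cell types that could be named were few. The endosperm genes IKU2 and AGL62 differed by -0.03 and -0.0054, and the silique wall gene ALC by 0.05. Mean signals in upper and lower lines were 4.33 and 4.36 for IKU2, 3.23 and 3.24 for AGL62, and 5.78 and 5.72 for ALC. Of 5 embryo regulators 0 had a named probe set. The tissue label was checked only by these levels and by the storage protein genes, which averaged 11.62 in upper and 11.65 in lower lines. Among them AT1G03890 had medians of 13.41 in upper and 13.47 in lower lines, whereas AT2G18540 averaged 5.42 in both. Individual members with the smallest p in their lists were AT3G02630 (-0.06) for fatty acids, GTR1 (-0.09) for glucosinolates, DFR (-0.15) for the seed coat, AT5G37670 (-0.07) for heat shock and AT1G47400 (0.43, adjusted p = 0.435) for iron.

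In the organelles the median difference was -0.00029 over 69 plastid and -0.07 over 18 mitochondrial probe sets. Over all tested probe sets 2.3% passed, and 3205 of 22745 had an unadjusted p under 0.05 (limma). Of the plastid probe sets 0 passed and 1 had an unadjusted p under 0.05. Of the mitochondrial ones 5 had an unadjusted p under 0.05, and 1 of these passed. It belonged to nad1, a subunit of respiratory complex I, with 4.98, 5.59 and 6.01 in upper lines, against 5.20, 5.74 and 6.36 in lower lines (difference -0.17, adjusted p = 0.0172), and the 6 other probe sets of nad1 were not called. With 10 principal components as covariates the nad1 difference was -0.09 and was not called (adjusted p = 0.387). It was -0.08 in Q lines alone (adjusted p = 0.656) and -0.27 in R lines alone (adjusted p = 0.0205), and the interaction did not pass (adjusted p = 0.918). Probe sets without a gene name in the annotation held here were called in 2.59% of 8730, as were 9 of 503 with several genes and 1 of 59 with a name the gene table lacked. Their places were unknown, so they stand in neither class. Whether the upper minus lower difference itself differed between Q and R lines was tested with an interaction term. The limma test called 0 of 22745 probe sets (1186 at unadjusted p under 0.05, smallest adjusted p 0.25), and the smallest p among named genes belonged to AT2G02830, AT4G00755, AT3G04960, AT5G53840 and AT3G49150. AT2G02830 differed by -0.10 in Q lines and 0.09 in R lines.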

How the data were processed

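Developing seeds of 116 recombinant inbred lines were measured on 1 array each. The authors deposited log2 signals per probe set, made with RMA per the submitters' processing notes. Its version, the genome build and any batch were not given in the sources used here. This method corrects background, sets arrays to a common distribution and compresses dim signals. Precision is limited by the number of arrays. Of 22810 probe sets, 64 array controls and the probe set of AT2G41650 were left out of the tests. Gene names came from the platform annotation matched to the RefSeq genes of TAIR10.1, used for names and gene order only: 13367 probe sets had 1 nuclear gene (AT2G41650 among them) and 87 an organelle gene, while 8730 had no gene name, 503 several and 59 an unmatched name. Linked means on chromosome 2.

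The split was tested in limma 3.58.1 (R 4.3.3; lmFit and eBayes) beside the letter as covariate, and p-values were adjusted by Benjamini-Hochberg over every probe set tested. The p-values measure the spread between lines, with no replicate within a line. Modes came from fitting 2 normal components with a shared SD, at least 4 SD and 1 log2 apart, with a smaller share of at least 0.2 and a BIC gain of at least 10. Recombinants were counted over lines whose posterior was at most 0.1 or at least 0.9. Named genes were the 10 nearest on each side, the chromosome 2 genes with separate modes, the 12 smallest p in each direction for linked and for unlinked genes, called organelle genes, called list members and the smallest p of each list, and the 5 smallest interaction p. The locus, lists and rules were chosen with earlier results of these data known. The fit was tested on simulated data. Alternatives changed the covariates, scaling, filter, variance model, array weights, lines used and the form of the split. Python 3.11.15 with scipy 1.17.1 was used for the other steps.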

Additional observations from a re-analysis of the deposited data

How the results depend on the processing

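All 24 linked genes with the smallest p kept their direction and their call under each alternative that tested them (20 of the 24 had the mean of 5 log2 that the filter on dim probe sets required). The count of called linked genes was 101 in Q lines alone and 84 in R lines alone, fits with fewer lines, and lay between 144 and 208 under the others, which include counting only genes within 800 places as linked. The unlinked count of 93 was 27 in Q lines alone (14 shared with the 93) and 14 in R lines alone (6 shared), 32 with 14 other loci as covariates (18 shared), 44 with 10 principal components (9 shared) and 144 with the AT2G41650 signal as a continuous covariate (83 shared), and the cause was not tested for the last 3. Other alternatives gave between 65 and 107. AT3G15900 was reversed with 10 principal components (-0.0093), and the cause was not tested. Without the letter 1 of the 24 unlinked genes lost its call, as did 1 with the continuous signal. The interaction count stayed at 0 wherever it was fitted. No paired analysis was run because each line is a sample of its own. Numbers that recur in Q and R names, as in Q005 and R005, were not used as pairs. Signals of dim probe sets are compressed by RMA, so their differences may be understated.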

Other observations

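Beyond the genes above, chosen after their values had been seen, the unlinked calls included AT1G06000, a flavonol rhamnosyltransferase gene (-0.20, adjusted p = 0.0182), PPDK, the pyruvate phosphate dikinase gene (-0.22, adjusted p = 0.0248), LPR2, a multicopper oxidase gene of phosphate-dependent root growth (-0.19, adjusted p = 0.0197), and AIM1, a gene of peroxisomal beta-oxidation (0.08, adjusted p = 0.0274). Among linked calls ATCSLC08, a gene of the cellulose synthase-like family, differed by -0.12, NGA1, a leaf and style shape regulator, by 0.24, and the actin-binding LIM protein gene WLIM2a by 0.35.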
